A study of Mus musculus with 60 samples.

Results

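The 10 genes described here are 4 secreted lectins of the Reg family (Reg1, Reg3a, Reg3b and Reg3g), the immunoglobulin receptor Pigr, the peptidoglycan recognition proteins Pglyrp1 and Pglyrp2, the cytokines Il33 and Il18, and the inducible nitric oxide synthase Nos2. They were taken by gene name from the deposited count table, which holds 55357 genes, and all 10 passed the filter on low counts that left 23360 genes for testing. PolyA RNA was sequenced from epithelial cells of 8-week-old Lgr5-2A-eGFP mice, in which the fluorescent protein reports Lgr5, a receptor gene of crypt base stem cells. Cells came from 5 parts of the gut (proximal, middle and distal small intestine, proximal and distal colon) and were sorted by brightness into 3 fractions, called GFP-high, intermediate and negative here. With 4 libraries for each of these 15 combinations there were 60. All groups carry the reporter and are otherwise untreated per the labels. At least 50000 cells of the small intestine or 30000 of the colon were sorted per fraction.

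These genes act at the boundary between the epithelium and the gut bacteria. Reg3b and Reg3g are C-type lectins that enterocytes and Paneth cells secrete and that bind bacterial cell walls, and their transcription is known to rise with bacterial colonization through IL-22 and STAT3 and through Toll-like receptor signalling. Pigr carries dimeric IgA across the epithelium, Pglyrp1 and Pglyrp2 bind or cleave peptidoglycan, Il18 is a cytokine precursor that caspase-1 cleaves, Il33 is a nuclear alarmin, and Nos2 makes nitric oxide.

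Total counts ran from 55411864 to 113917959 per library. Lgr5 followed the sort: group means were 203 to 544 CPM (counts scaled to library size) in GFP-high, 74.1 to 143 in GFP-intermediate and 2.67 to 12.2 in GFP-negative cells. The labels do not say whether the 4 numbered replicates are separate animals, so p-values measure the spread between these libraries. The libraries numbered 1 stand apart in sex-linked genes. The 9 from the small intestine held 367 to 2199 CPM of Xist and none of Y-linked Ddx3y, and the 6 from the colon held both Xist (156 to 528 CPM) and Ddx3y (41.1 to 49.9 CPM). In all other libraries Xist was at most 2.02 CPM and Ddx3y at least 41.1 CPM. Calls on members that are lost without the libraries numbered 1 are given with both values. For Reg3a between GFP-high and GFP-intermediate colon cells only the adjusted p-values are given.

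The 4 Reg genes lie within 98216 bases of chromosome 6, in the order Reg3b (GRCm38 positions 78370657 to 78373466), Reg3a (78380709 to 78383827), Reg1 (78422711 to 78428667) and, on the opposite strand, Reg3g (78466269 to 78468872). Reg3d and Reg2 lie between them. The 250 bases before the start of each gene are shown because neighbours in this cluster had opposite profiles along the gut. They come from the RefSeq promoter table (GRCm38.p6), whose start sites differ from the outer gene bounds above for Reg3b, Reg1 and Reg3g, and are written 5′ to 3′ on the gene's strand: Reg3b is chr6:78370635-78370884 (+), Reg3g is chr6:78468875-78469124 (-), Reg3a is chr6:78380459-78380708 (+) and Reg1 is chr6:78425733-78425982 (+). Capitals mark a STAT type motif, TTCNNNGAA, and a TATA box, TATAAA, each on either strand.
Reg3b: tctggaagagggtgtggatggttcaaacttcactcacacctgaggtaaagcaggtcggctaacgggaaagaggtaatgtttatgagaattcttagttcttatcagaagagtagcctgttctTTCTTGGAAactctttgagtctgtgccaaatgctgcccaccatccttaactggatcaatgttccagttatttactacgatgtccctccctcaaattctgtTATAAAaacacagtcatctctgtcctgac
Reg3g: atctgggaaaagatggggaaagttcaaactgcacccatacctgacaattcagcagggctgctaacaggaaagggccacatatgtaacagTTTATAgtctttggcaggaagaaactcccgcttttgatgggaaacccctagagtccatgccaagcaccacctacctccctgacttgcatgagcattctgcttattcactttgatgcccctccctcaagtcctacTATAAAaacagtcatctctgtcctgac
Reg3a: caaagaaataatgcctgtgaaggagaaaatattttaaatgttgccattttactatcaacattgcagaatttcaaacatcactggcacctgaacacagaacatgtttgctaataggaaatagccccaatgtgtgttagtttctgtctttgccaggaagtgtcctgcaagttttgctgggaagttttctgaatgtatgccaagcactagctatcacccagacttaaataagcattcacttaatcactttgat
Reg1: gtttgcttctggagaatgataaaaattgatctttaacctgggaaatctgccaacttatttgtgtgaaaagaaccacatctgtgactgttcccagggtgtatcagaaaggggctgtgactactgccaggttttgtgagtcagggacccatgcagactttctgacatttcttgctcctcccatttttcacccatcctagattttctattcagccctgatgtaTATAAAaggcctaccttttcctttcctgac
Upstream of Reg3b and Reg3g, 173 of 253 aligned positions were identical (68.4%), and the last 20 bases before the start were the same in both. The other 5 pairs of these genes were 45.1% to 49.5% identical, with shared runs of at most 11 bases. TATAAA stood 29 bases before the start of Reg3b, 27 before Reg3g and 30 before Reg1, and was not found before Reg3a. It was also found upstream of Il18 and Il33. The STAT type motif was found before Reg3b only among the 9 of 10 members with a window (Nos2 had none), at 129 to 121 bases before the start, and in the full 300-base windows also after the start of Pigr. In the 32851 windows of all genes it occurs in 7.02% of the 250-base upstream stretches and 8.3% of the full 300-base windows, and TATAAA in 12.4% and 13.6%. The interferon response type motif, found in 3.44% of full windows, was in none of the members' windows. No run of 50 bases is shared between the annotated transcripts of these Reg genes and those of Reg2, Reg3d or Reg4.

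Within the small intestine Reg3b and Reg3g were lowest in the proximal and highest in the distal part of each fraction, and both were lowest in the distal colon. In the proximal colon Reg3b was not below every small intestinal part: it was 141 CPM in GFP-high and 319 in GFP-intermediate cells, against 118 and 207 in the proximal small intestine. In GFP-negative cells the Reg3b group means went from 1752 ± 962 CPM (SD, n = 4) in the proximal part to 5350.5 ± 2689 in the middle and 8415 ± 3553 in the distal part. They were 412 ± 234 CPM in the proximal and 14.4 ± 21.9 in the distal colon. The 4 libraries held 1083, 3016.5, 1979 and 928 CPM in the proximal part and 11575, 11384, 4974 and 5728 in the distal part, so these groups did not overlap. Reg3g followed the same order in GFP-negative cells, from 867 ± 469 CPM in the proximal part to 3199 ± 1745 in the middle and 5905.5 ± 1979 in the distal part. It was 184 ± 69.5 CPM in the proximal and 6.49 ± 8.08 in the distal colon. Per gene length, the distal GFP-negative level was 7369 RPKM (CPM per kilobase of gene length) for Reg3b and 2793.5 for Reg3g. Across the 15 group means the log2 levels of Reg3b and Reg3g had a Pearson r of 0.986. This is a description of groups that share replicate numbers and scaling.

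Reg1 had the opposite profile in the small intestine. Reg1 encodes a lectin first known as a protein of pancreatic juice. In GFP-negative cells it was 1064 ± 240 CPM in the proximal part (1163, 1254, 1124 and 714 in the 4 libraries). It was 55.0 ± 13.6 CPM in the middle part (45.9, 51.0, 75.1 and 47.9) and 4.71 ± 0.962 CPM in the distal part (3.29, 5.07, 5.44 and 5.03). No 2 of these 3 groups overlapped. In the colon Reg1 group means ran from 0.790 to 6.75 CPM. In GFP-high cells of the distal colon the libraries held 0, 5.30, 0.896 and 0 CPM, so that 1 library carries most of this mean.

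Reg3a, another Reg3 lectin, was a gene of the small intestine in these data. Its lowest small intestinal library, a GFP-high one, held 3.41 CPM, and its highest colon library 0.778 CPM. In GFP-negative cells it was 164 ± 32.4 CPM in the proximal part (130, 208, 157 and 162 in the 4 libraries). It was 140 ± 58.0 CPM in the middle part and 79.8 ± 13.0 CPM in the distal part (72.3, 70.8, 98.9 and 77.3). The proximal and distal groups did not overlap. In the distal colon no read was counted in any GFP-high or GFP-negative library.

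**Figure D1:**
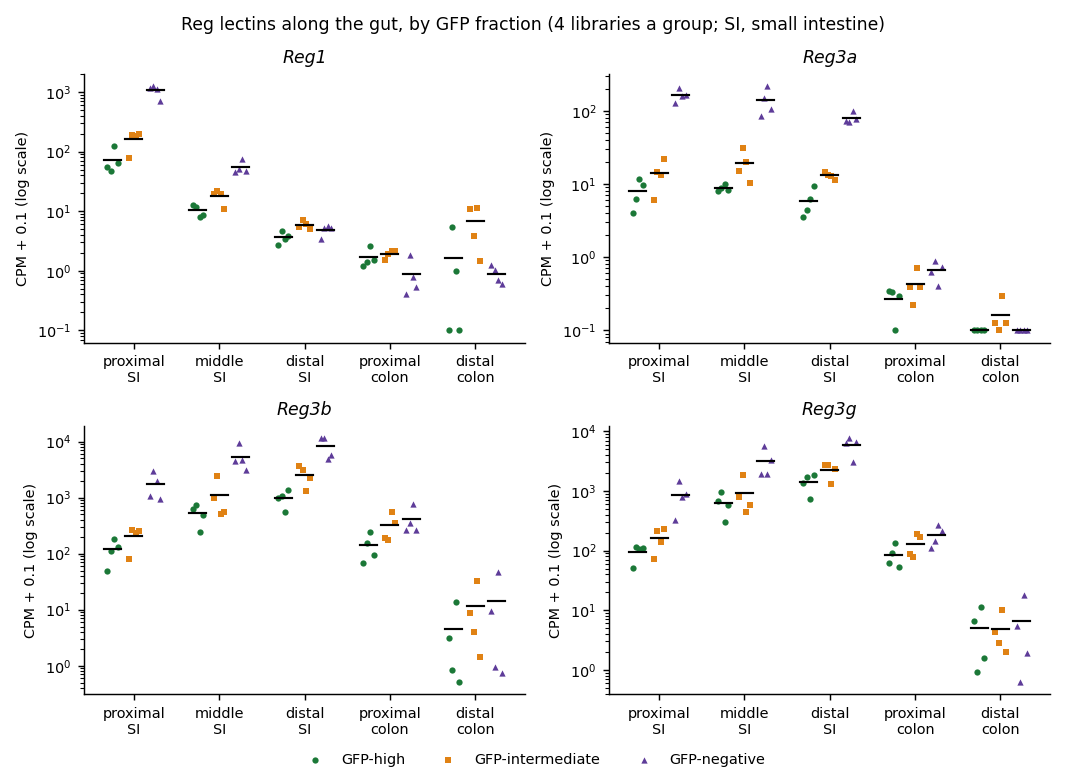
Levels of the 4 Reg lectins in every library, as CPM + 0.1 on a log axis, for 5 gut parts and 3 GFP fractions; points are libraries and black bars group means. Reg3b and Reg3g climb toward the distal small intestine (to 8415 and 5905.5 CPM in GFP-negative cells), Reg1 drops from 1064 to 4.71 CPM, and Reg3a is near 0 in the colon.

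Distal was compared with proximal small intestine within each fraction. Counted over the 10 members, GFP-high cells gave 4 higher and 1 lower, GFP-intermediate cells 4 higher and 3 lower, and GFP-negative cells 3 higher and 2 lower. A gene counts as changed at an adjusted p below 0.05 (edgeR quasi-likelihood test, Benjamini-Hochberg over all genes); 11.8%, 8.81% and 15.6% of all genes tested passed in these 3 comparisons. By direction these were 6.39%, 5.25% and 6.67% higher and 5.42%, 3.56% and 8.9% lower. The members' median log2 differences were 0.29, -0.01 and -0.67, beside 0, 0 and -0.03 over all genes. Reg1 was lower, with log2 differences of -4.36 ± 0.65 (SE), -4.83 ± 0.66 and -7.82 ± 0.76 in the 3 fractions (adjusted p 1.8e-06, 2.09e-07 and 1.1e-11 by edgeR). Reg3g rose by 3.88 ± 0.69, 3.799 ± 0.69 and 2.77 ± 0.66 (edgeR adjusted p 4.57e-05, 5.33e-05 and 0.00161). In bulk libraries, fewer cells of a type and less RNA per cell cannot be told apart.

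Reg3b rose by 3.08 ± 0.86 in GFP-high and 3.62 ± 0.88 in GFP-intermediate cells (edgeR adjusted p 0.0119 and 0.00322). In GFP-negative cells its difference of 2.26 ± 0.83 did not pass (edgeR adjusted p = 0.0534), although the groups did not overlap; with the replicate number as a block it was 2.43 and passed (adjusted p = 0.0231), as it did with DESeq2 (2.30, adjusted p = 0.0232). Without the libraries numbered 1 the GFP-high and GFP-intermediate differences were 2.81 (adjusted p = 0.15) and 3.10 (adjusted p = 0.101). The GFP-high call was also lost without the libraries numbered 2 (3.01, adjusted p = 0.062) or without proximal GFP-high replicate 1 alone (2.82, adjusted p = 0.0525). Reg3a differed by -1.04 ± 0.39 in GFP-negative cells, which did not pass (edgeR adjusted p = 0.0659) and passed with the replicate block (-1.04, adjusted p = 0.0485).

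Nos2 (chromosome 11, 78920787 to 78960254) rose along the small intestine in all 3 fractions. In GFP-high cells its libraries held 1.38, 3.68, 0.839 and 9.22 CPM in the proximal part, 35.2, 48.0, 28.5 and 120 in the middle part and 83.7, 75.9, 63.4 and 145 in the distal part. The proximal libraries lay below all middle and distal ones. In GFP-negative cells the middle part spread widely, with 37.9, 213, 17.1 and 156 CPM, and the distal part held 207, 248, 87.4 and 305 CPM. Distal minus proximal was 4.60 ± 0.94, 4.20 ± 0.92 and 5.49 ± 0.98 on the log2 scale in GFP-high, intermediate and negative cells (edgeR adjusted p 0.000385, 0.00094 and 2.8e-05). In the colon no library exceeded 4.54 CPM.

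Pglyrp1 (chromosome 7, 18871331 to 18890459), whose product binds peptidoglycan and is best known from neutrophil granules, also rose distally. Its group means ran from 57.6 CPM in proximal GFP-negative cells to 174 in distal GFP-intermediate cells, and distal minus proximal was 1.38 ± 0.16, 1.33 ± 0.16 and 1.47 ± 0.16 in the 3 fractions (edgeR adjusted p 3.17e-09, 6.54e-09 and 2.88e-10). Il18 fell toward the distal part in GFP-negative cells, from 89.8, 114, 77.6 and 98.99 CPM to 35.6, 27.5, 23.3 and 32.1 CPM, a difference of -1.68 ± 0.33 (edgeR adjusted p = 0.000142). It also fell in GFP-intermediate cells by 1.25 ± 0.33 (edgeR adjusted p = 0.00856), a call lost without distal GFP-intermediate replicate 3 (-1.06, adjusted p = 0.0561) or all libraries numbered 3 (-1.11, adjusted p = 0.0938). Pigr differed by -0.40 ± 0.16 in GFP-negative cells, which passed with the replicate block only (-0.41, adjusted p = 0.0131, against 0.0942 without). Pglyrp2 in GFP-intermediate cells was also called lower, but on 44 counts over the 4 proximal libraries and 2 over the 4 distal ones (-4.52, edgeR adjusted p = 0.0282). The call was lost when any of 4 of the 8 libraries was left out (adjusted p up to 0.0884), and without the libraries numbered 1 (-4.30, adjusted p = 0.0894).

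Within the colon Reg3b and Reg3g dropped from the proximal to the distal part in all 3 fractions while Il33 rose. Of the 10 members, 2 were higher and 3 lower in distal than in proximal GFP-high cells, 4 higher and 3 lower in GFP-intermediate cells, and 3 higher and 3 lower in GFP-negative cells, beside 7.8%, 7.34% and 13.6% of all genes. By direction these were 3.74%, 3.27% and 6.39% higher and 4.05%, 4.07% and 7.17% lower. The members' median log2 differences were 0.37, -0.03 and -0.43, against 0, 0 and -0.02 over all genes. Reg3b was lower, with log2 differences of -4.99 ± 0.94, -4.80 ± 0.93 and -4.84 ± 0.93 in GFP-high, intermediate and negative cells (edgeR adjusted p 0.000126, 0.000182 and 0.000125). Reg3g was lower by -4.10 ± 0.70, -4.79 ± 0.72 and -4.82 ± 0.72 (edgeR adjusted p 2.38e-05, 2.08e-06 and 1.33e-06). Within the distal colon both varied strongly between libraries: Reg3b in GFP-negative cells was 9.35, 0.831, 46.6 and 0.632 CPM, and Reg3g was 5.37, 0.525, 18.2 and 1.85 CPM. The libraries numbered 3 were the highest for both genes in each distal colon fraction. Reg3a was counted 26 to 56 times per library in proximal GFP-negative cells and never in distal ones, so that its proximal level was at least 16.4-fold higher, against a floor of 3 counts per library. In GFP-high cells the same bound was 4.65-fold, with 1 proximal library at 0. In GFP-intermediate cells Reg3a fell by 2.38 ± 0.69 (edgeR adjusted p = 0.0227), a call that 4 of 8 single left-out libraries ended (adjusted p up to 0.172), as did leaving out the libraries numbered 1 (-2.18, adjusted p = 0.114). Without distal GFP-intermediate replicate 3 the Reg3a difference was -4.18. Reg1 rose by 1.88 ± 0.61 in GFP-intermediate cells (edgeR adjusted p = 0.0444), a call that 6 of 8 single left-out libraries ended (adjusted p up to 0.194), as did leaving out the libraries numbered 1 (1.49, adjusted p = 0.259). In the other fractions the Reg1 difference was -0.04 and 0.01 and did not pass (edgeR adjusted p 1 and 1).

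Il33 (chromosome 19, 29925114 to 29960718) was 0.617 ± 0.166 CPM in GFP-high cells of the proximal colon (0.428, 0.711, 0.794 and 0.534) and 13.7 ± 3.40 in those of the distal colon (18.0, 14.7, 11.04 and 10.9). The distal libraries lay above all proximal ones. The rise was 4.47 ± 0.62 in GFP-high, 3.75 ± 0.61 in GFP-intermediate and 2.84 ± 0.60 in GFP-negative cells (edgeR adjusted p 3.15e-07, 8.38e-06 and 0.000442). In a fit of only the 2 groups compared, the GFP-negative difference was 2.85 and did not pass (adjusted p = 0.151). Leaving out replicate 4 of the GFP-negative proximal colon, which held 1.24 CPM against 0 to 0.333 in the other 3, the GFP-negative rise was 4.46. Il18 (chromosome 9, 50554827 to 50581840) rose in GFP-intermediate cells by 1.07 ± 0.33 (edgeR adjusted p = 0.0301), from 16.3 to 22.2 CPM in the proximal to 30.5 to 48.9 in the distal colon. This call was lost when any of 5 of the 8 libraries was left out (adjusted p up to 0.103), and without the libraries numbered 1 (1.05, adjusted p = 0.136). In GFP-negative cells the Il18 difference was 0.82 ± 0.32 and did not pass (edgeR adjusted p = 0.0884), but did in a fit of the 2 groups alone (0.80, adjusted p = 0.0239). Pglyrp1 rose by 0.49 ± 0.15, 0.50 ± 0.15 and 0.50 ± 0.15 in the 3 fractions (edgeR adjusted p 0.039, 0.0326 and 0.0228), and its libraries did not overlap in any of them. Those calls were lost when any of 8, 6 and 2 of the 8 libraries was left out, with values of 0.36 to 0.52 in these alternatives. Without the libraries numbered 1 the GFP-high and GFP-intermediate values were 0.49 and 0.52 and did not pass (adjusted p 0.142 and 0.121). Pigr rose by 0.47 ± 0.16 in GFP-negative cells (edgeR adjusted p = 0.0468) and by 0.28 once proximal colon replicate 3 of that fraction was left out (edgeR adjusted p = 0.317), the library that held 3206 CPM against 5794 to 6603 in the others. That call was lost when any of 5 of the 8 libraries was left out, and without the libraries numbered 1 (0.44, adjusted p = 0.183).

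Between organs, averaged over the parts of each, the Reg lectins and Nos2 were lower in the colon in every fraction. Single parts could overlap. In GFP-negative cells the lowest small intestinal library held 0.403 CPM of Nos2 and the highest colon library 4.54 CPM. In GFP-intermediate cells the Reg1 mean was 6.75 CPM in the distal colon and 5.77 CPM in the distal small intestine. Over the colon (8 libraries per fraction) against the small intestine (12), 2 members were higher and 6 lower in GFP-high, 2 higher and 5 lower in GFP-intermediate and 1 higher and 7 lower in GFP-negative cells. Of all genes tested, 42.2%, 44.1% and 50.5% passed in these comparisons. By direction these were 20.9%, 22.1% and 28.1% higher and 21.3%, 22% and 22.4% lower. The members' medians were -3.29, -3.05 and -4.87 against -0.04, -0.01 and 0.05. In GFP-negative cells Reg3b was lower in the colon by a log2 difference of -5.80 ± 0.67, Reg3g of -6.20 ± 0.53 and Nos2 of -5.42 ± 0.69 (edgeR adjusted p 1.61e-10, 1.14e-14 and 1.75e-09). Reg1 was lower by a log2 difference of -3.15 ± 0.43, -2.86 ± 0.42 and -6.36 ± 0.51 in GFP-high, intermediate and negative cells (edgeR adjusted p 1.9e-08, 7.57e-08 and 6.8e-16). Pglyrp1 was higher in the colon in all 3 fractions, by 0.69 ± 0.10, 0.55 ± 0.10 and 0.82 ± 0.10 (edgeR adjusted p 5.53e-08, 5.97e-06 and 4.25e-10). Il18 was higher in colon GFP-high and GFP-intermediate cells by 1.71 ± 0.21 and 1.77 ± 0.21 (edgeR adjusted p 9.19e-10 and 3.11e-10) and lower in GFP-negative cells by a log2 difference of -0.52 ± 0.21 (edgeR adjusted p = 0.0344). The last call was lost when any of 7 of 20 libraries was left out (adjusted p up to 0.0847), and without the libraries numbered 1 (-0.54, adjusted p = 0.0746). Il33 was lower in the colon in GFP-negative cells, by a log2 difference of -4.32 ± 0.42 (edgeR adjusted p = 8.19e-13), with 12 libraries from 9.60 to 45.8 CPM against 8 from 0 to 4.55, and its differences in the other fractions did not pass. Pglyrp2 was called lower in GFP-high cells of the colon, at levels of at most 0.410 CPM in either organ, and without distal small intestinal GFP-high replicate 4 that call was lost (adjusted p = 0.0755). The value was -3.44 over all libraries, -2.90 without those numbered 1 (adjusted p = 0.0686) and -5.55 without distal colon GFP-high replicate 2, the library with all counts of its group. These values cannot be read as effect sizes, since the proximal colon GFP-high libraries had no count of Pglyrp2.

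Pigr (chromosome 1, 130826684 to 130852249) changed least. Its libraries ran from 3206 to 10123 CPM over all 60, and the highest group mean was 2.02 times the lowest. It was 8542 ± 1641 CPM in proximal GFP-negative cells (6990, 10123, 7269 and 9786) and 4232.5 ± 341 in proximal GFP-high cells (3900, 4375, 4011 and 4644). These groups did not overlap. No organ difference of Pigr passed. The 10 members together made up 0.430% of all counts in the lowest library, proximal small intestinal GFP-high replicate 1, and 2.35% in the highest, distal GFP-negative replicate 2.

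**Figure D2:**
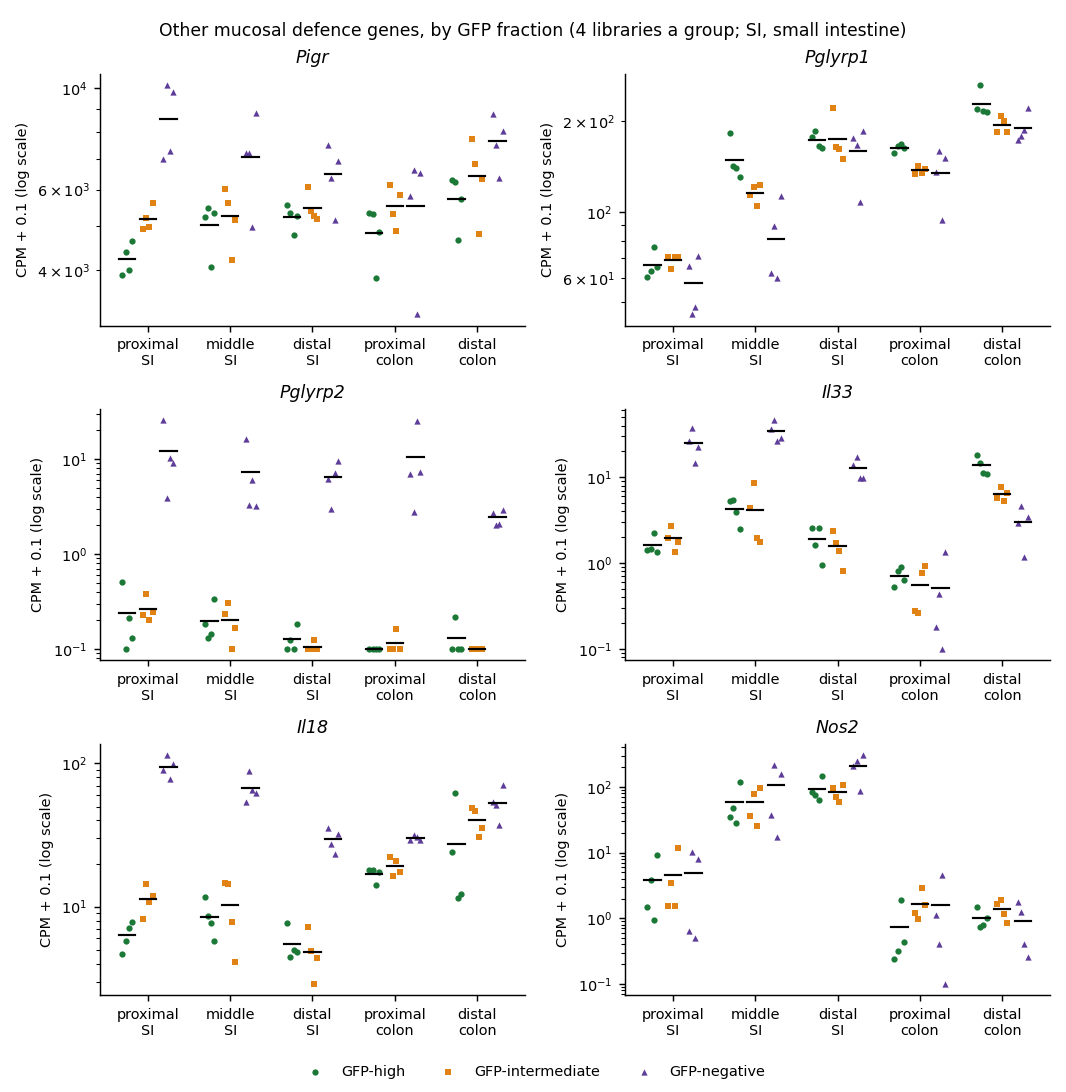
Levels of Pigr, Pglyrp1, Pglyrp2, Il33, Il18 and Nos2 in every library, as CPM + 0.1 on a log axis whose range differs between panels; points are libraries and black bars group means. Il33 is highest in GFP-negative cells of the small intestine but in GFP-high cells of the distal colon (13.7 CPM), Pglyrp2 is near 0 outside GFP-negative cells, and Nos2 is near 0 in the colon.

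GFP-high cells were compared with GFP-negative cells in each part, the contrast of the brightest reporter fraction with cells that lack the reporter signal. In the proximal small intestine 8 of 10 members were lower and 0 higher in GFP-high cells. The middle part had 8 lower and 1 higher, and the distal part 6 lower and 0 higher. The share of all genes that passed was 47.1%, 48.3% and 52%, with 22.5%, 22.7% and 25.7% higher and 24.6%, 25.6% and 26.2% lower in GFP-high cells. The members' median log2 differences were -3.88, -2.73 and -2.27, where the median over all genes was 0, -0.04 and -0.01. In the proximal colon 3 were lower and 0 higher, and in the distal colon 2 lower and 1 higher, beside 25.3% and 25.1% of all genes (11.3% and 11.2% higher, 14% and 13.9% lower). The medians there were -0.98 and, over the 9 members with a count, -0.38, against -0.04 and -0.03.

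Reg3a had the most even difference among the Reg genes of the small intestine, at -4.39 ± 0.45, -4.02 ± 0.44 and -3.78 ± 0.44 from the proximal to the distal part (edgeR adjusted p 3.22e-11, 1.87e-10 and 6.22e-10). Reg3b was lower in GFP-high cells by -3.89 ± 0.89, -3.35 ± 0.87 and -3.07 ± 0.86 (edgeR adjusted p 0.000244, 0.00103 and 0.00211). Its 4 GFP-high libraries of the distal part held 977, 1083, 547 and 1391 CPM, all below the lowest GFP-negative library at 4974. Reg3g was lower by -3.20 ± 0.67, -2.34 ± 0.64 and -2.08 ± 0.64 (edgeR adjusted p 6.97e-05, 0.00199 and 0.00514), with 1360, 1681, 720 and 1818 CPM in distal GFP-high cells. Reg1 was lower by -3.87 ± 0.63 in the proximal and -2.43 ± 0.59 in the middle part (edgeR adjusted p 8.25e-07 and 0.000534). In the distal part the Reg1 level was 3.54 ± 0.819 CPM among GFP-high and 4.71 ± 0.962 among GFP-negative libraries, and the groups overlapped. Markers of enterocytes moved with these genes: their summed level was 419 to 1469 CPM in the GFP-high and 7827 to 21366 CPM in the GFP-negative libraries of the small intestine. Paneth cell markers moved the other way, from 4043 to 19657 CPM in GFP-high and from 317 to 846 CPM in GFP-negative libraries. Goblet cell markers were also lower in GFP-high libraries there (1542 to 3608 CPM against 26240.0 to 52424 CPM). The part of these cells in the result was not tested.

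In the colon 1 difference of a Reg gene between GFP-high and GFP-negative cells passed. Reg3a was lower in proximal GFP-high cells by -1.71 ± 0.54 (edgeR adjusted p = 0.0166), at 0 to 0.245 CPM against 0.300 to 0.778. This call was lost without proximal GFP-high replicate 3 (-1.32, adjusted p = 0.0738), without proximal GFP-negative replicate 2 (-1.51, adjusted p = 0.0568) and in a fit of the 2 groups alone (-1.73, adjusted p = 0.275). Reg3b in the proximal colon held 69.2, 156, 245 and 95.0 CPM in GFP-high and 267, 358, 757 and 265 CPM in GFP-negative cells. The difference of -1.54 ± 0.81 did not pass (edgeR adjusted p = 0.164), although the groups did not overlap and GFP-high was lower in 4 of 4 same-numbered pairs. In a fit of the 2 groups alone it was -1.51 and passed (adjusted p = 0.0361). Reg3g differed by -1.11 ± 0.62 there (edgeR adjusted p = 0.199). In the distal colon the Reg3b difference of -1.69 ± 0.83 did not pass (edgeR adjusted p = 0.129). GFP-high was lower in 4 of 4 same-numbered pairs, by log2 differences (1 CPM added) of -1.38, -0.08, -1.71 and -0.21. The difference moved widely when 1 library numbered 3 was left out. It was -3.38 and passed without distal GFP-high replicate 3 (adjusted p = 0.00834), and 0.30 without distal GFP-negative replicate 3 (adjusted p = 0.854).

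Pigr was lower in GFP-high cells of the proximal and middle small intestine, by -1.01 ± 0.17 and -0.49 ± 0.16 (edgeR adjusted p 1.06e-06 and 0.0111). The middle call was lost without middle GFP-high replicate 3 (-0.40, adjusted p = 0.0593) or middle GFP-negative replicate 4 (-0.37, adjusted p = 0.0774), and without the libraries numbered 1, 2 or 4 (-0.48, -0.52 and -0.39, adjusted p 0.0602, 0.0512 and 0.125). In the distal small intestine (-0.31 ± 0.16) and distal colon (-0.42 ± 0.16) the differences did not pass (edgeR adjusted p 0.112 and 0.0537). With the replicate block they were -0.30 and -0.42 and did (adjusted p 0.033 and 0.00638), and GFP-high was lower in 4 of 4 same-numbered pairs in each. Leaving out distal small intestinal GFP-negative replicate 3 (-0.40, adjusted p = 0.0486) or distal colon GFP-negative replicate 3 (-0.50, adjusted p = 0.0338) also brought them past the threshold. Pglyrp1 was the member higher in GFP-high cells of the middle small intestine, with 183, 142, 140 and 131 CPM against 62.4, 89.4, 59.9 and 113. This difference was 0.88 ± 0.16 (edgeR adjusted p = 4.77e-06), with no overlap. In the other 4 parts the Pglyrp1 difference did not pass.

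**Figure D3:**
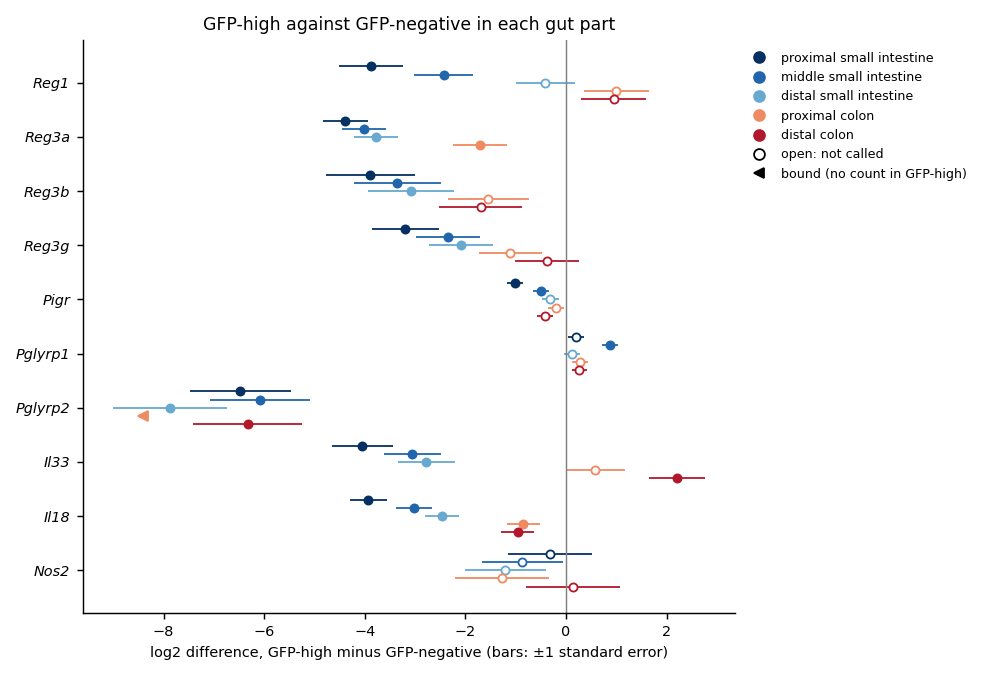
Log2 difference between GFP-high and GFP-negative cells for each member in 5 gut parts, with bars of ±1 standard error; filled points passed the test, open points did not, and the triangle is a bound for Pglyrp2, which had no count in proximal colon GFP-high cells. Il33 lies at -4.05 in the proximal small intestine and at 2.21 in the distal colon, and Il18 is nearer to 0 in the colon than in the small intestine.

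Il18 and Il33 are cytokines of the interleukin-1 family, and both differed strongly between fractions in the small intestine. Il18 was 4.56, 5.70, 7.05 and 7.69 CPM in proximal GFP-high cells against 89.8, 114, 77.6 and 98.99 in GFP-negative cells. Its differences were -3.93 ± 0.36, -3.02 ± 0.35 and -2.46 ± 0.34 from the proximal to the distal small intestine (edgeR adjusted p 5.46e-13, 2.8e-10 and 2.68e-08). In the proximal colon Il18 was 17.9, 18.0, 14.02 and 17.3 CPM in GFP-high and 29.3, 31.6, 30.6 and 29.1 CPM in GFP-negative cells. These groups did not overlap. The difference of -0.84 ± 0.33 passed narrowly (edgeR adjusted p = 0.0495) and was lost when any of the 8 libraries was left out (-0.77 to -0.88, adjusted p 0.0585 to 0.13), and without the libraries numbered 1 (-0.83, adjusted p = 0.138). In the distal colon it was -0.96 ± 0.33 (edgeR adjusted p = 0.0246). There GFP-high replicate 2 held 61.9 CPM against 24.0, 11.4 and 12.2 in the other 3, and without it the difference was -1.74. The call was lost without GFP-high replicate 1, 3 or 4 or GFP-negative replicate 4 (-0.70 to -0.90, adjusted p 0.0681 to 0.136), without the libraries numbered 1 (-0.86, adjusted p = 0.125), and in a fit of the 2 groups alone (-0.95, adjusted p = 0.177). Leukocyte markers stood beside these differences: in the small intestine they summed to 6.19 to 33.7 CPM in GFP-high and 124 to 926 CPM in GFP-negative libraries. In the colon the sums were 2.57 to 11.98 and 83.9 to 757 CPM. The enterocyte and goblet cell sums of the small intestine given above also moved with Il18 and Il33. The part of these cells in the cytokine values was not tested.

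Il33 was lower in GFP-high cells of the small intestine, by -4.05 ± 0.60, -3.05 ± 0.57 and -2.78 ± 0.57 from the proximal to the distal part (edgeR adjusted p 1.44e-07, 1.18e-05 and 4.64e-05). In the middle part its libraries held 5.19, 5.27, 3.79 and 2.36 CPM in GFP-high and 36.4, 45.8, 26.5 and 28.9 in GFP-negative cells. In the distal colon the order was turned: 18.0, 14.7, 11.04 and 10.9 CPM in GFP-high, 5.66, 7.65, 5.13 and 6.40 in GFP-intermediate and 2.79, 4.55, 1.08 and 3.39 in GFP-negative cells. None of the 3 groups overlapped. GFP-high exceeded GFP-negative by 2.21 ± 0.55 (edgeR adjusted p = 0.0021), in 4 of 4 same-numbered pairs. In the proximal colon Il33 was at most 1.24 CPM in any library, and the difference of 0.58 ± 0.59 did not pass (edgeR adjusted p = 0.526). Without GFP-negative replicate 4 it was 2.20 and passed (adjusted p = 0.00777). Fibroblast and endothelial markers summed to 0.853 to 4.12 CPM in distal colon GFP-high and 4.55 to 18.6 CPM in GFP-negative libraries. Leukocyte markers were lower in distal colon GFP-high libraries too (2.57 to 5.34 CPM against 83.9 to 264). Goblet cell markers were lower there as well (14931 to 19237 CPM against 33887 to 54252). So were tuft cell markers (33.8 to 48.0 CPM against 153 to 225). Stem cell markers were higher (382 to 636 CPM against 39.9 to 49.7). The part of any of these cells in the Il33 values was not tested.

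Pglyrp2 (chromosome 17, 32412459 to 32424167) was counted almost entirely in GFP-negative cells. The GFP-negative libraries held 25.4, 3.77, 10.1 and 9.09 CPM in the proximal, 16.2, 3.15, 5.98 and 3.13 in the middle and 6.12, 2.86, 6.95 and 9.37 in the distal small intestine. They held 6.92, 2.64, 25.2 and 7.23 CPM in the proximal and 2.63, 1.95, 1.98 and 2.82 in the distal colon. In the GFP-high and GFP-intermediate libraries it was at most 0.410 CPM. GFP-high was lower by -6.47 ± 1.01, -6.08 ± 0.99 and -7.87 ± 1.14 in the small intestine (edgeR adjusted p 6.12e-07, 1.41e-06 and 1.04e-07), on 35, 37 and 8 counts over the GFP-high libraries of each part. It was at least 341-fold lower in proximal colon GFP-high cells, which had no count, and lower by -6.33 ± 1.09 in the distal colon (edgeR adjusted p = 2e-05), where all 9 GFP-high counts came from replicate 2.

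T cell and leukocyte markers moved with Pglyrp2. All 3 T cell markers (Cd3e, Cd3g and Cd8a) were detected in all 15 groups, and their summed level was 11.7 to 702 CPM in the GFP-negative libraries. It was 0 to 6.25 CPM in the GFP-high and 0.0408 to 5.34 CPM in the GFP-intermediate libraries. Within the GFP-negative group of each part, the library with the highest T cell sum also had the highest Pglyrp2 in 5 of 5 parts, and the library with the lowest sum had the lowest Pglyrp2 in 3 of 5. This was not particular to T cell markers. The leukocyte sum was highest in the same library of each part. So was the macrophage sum except in the middle small intestine, and the fibroblast and endothelial sum except in the distal colon. Enteroendocrine and plasma and B cell sums were also higher on average in GFP-negative than in GFP-high cells of each part. In the proximal small intestine, for example, the T cell sums were 702, 64.5, 268 and 224 CPM beside Pglyrp2 at 25.4, 3.77, 10.1 and 9.09 CPM. The genes most like Pglyrp2 over the 15 group means were Apol7e, Ctsw and Runx3 (Pearson r 0.998, 0.997 and 0.997, searched over 16102 protein coding genes). The part of these cells in the Pglyrp2 values was not tested. An antisense gene overlaps 468 of the 3239 exon bases of Pglyrp2, and without stated strand counting its reads cannot be told apart from those of Pglyrp2.

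**Figure D4:**
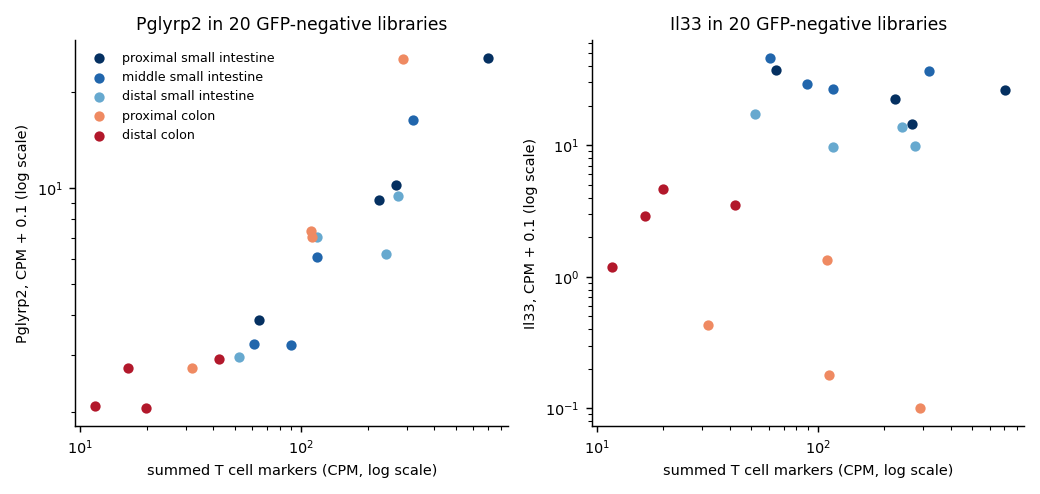
Pglyrp2 (left) and Il33 (right) against the summed level of 3 T cell markers in the 20 GFP-negative libraries, both as CPM on log axes (0.1 added to the gene), coloured by gut part. Pglyrp2 runs from 1.95 to 25.4 CPM and is highest in each part where the T cell sum is highest, while Il33 is at 9.60 to 45.8 CPM in the small intestine and at most 4.55 CPM in the colon. The leukocyte sum, which is not drawn, is highest in the same libraries as the T cell sum.

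Nos2 differed between fractions by less than the test could call in every part. In CPM the gap was widest in the distal small intestine, at 83.7, 75.9, 63.4 and 145 CPM in GFP-high against 207, 248, 87.4 and 305 in GFP-negative cells. That difference of -1.20 ± 0.81 did not pass (edgeR adjusted p = 0.217), although GFP-high was lower in 4 of 4 same-numbered pairs, and it passed in a fit of the 2 groups alone (-1.24, adjusted p = 0.0164). At levels of 0.629 and 1.47 CPM the proximal colon difference was -1.27 ± 0.93 and did not pass (edgeR adjusted p = 0.349).

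GFP-high and GFP-intermediate cells were closer to each other. Over the 3 parts of the small intestine 2 of 10 members passed (23.9% of all genes), and over the colon 1 did (12% of all genes), all lower in GFP-high cells. Of all genes 10.4% and 4.83% were higher and 13.4% and 7.2% lower in them. The members' medians were -0.23 and -0.32, with 0 over all genes in each. In the small intestine Reg3a was lower in GFP-high cells by -1.04 ± 0.23 (edgeR adjusted p = 0.000703) and Reg1 by -0.90 ± 0.33 (edgeR adjusted p = 0.0408). The Reg1 call was lost when any of 15 of 24 libraries was left out (adjusted p up to 0.0695), and without the libraries numbered 1 (-0.94, adjusted p = 0.0745). Reg3b and Reg3g differed by -1.09 ± 0.46 and -0.68 ± 0.36 and did not pass (edgeR adjusted p 0.0808 and 0.172), but did in a fit of the 2 fractions alone (-1.08 and -0.68, adjusted p 0.00267 and 0.0268). In the colon the call was Reg3a (edgeR adjusted p = 0.0327), on 68 GFP-high and 140 GFP-intermediate counts over 8 libraries each. It was lost without distal GFP-intermediate replicate 3 and 4 other single libraries (adjusted p up to 0.276), and without the libraries numbered 1 (adjusted p = 0.12). Its log2 difference cannot be read as an effect size, since the distal colon GFP-high libraries had no count of Reg3a. Reg1 differed by -1.18 ± 0.43 in the colon (edgeR adjusted p = 0.0611) and by -1.31 with the replicate block (adjusted p = 0.0283). Without distal GFP-high replicate 2, the library with 5.30 CPM, it was -2.33 (adjusted p = 0.000196). Il33 differed by 0.78 ± 0.39 in the colon and did not pass (edgeR adjusted p = 0.196), but did in a fit of the 2 fractions alone (0.81, adjusted p = 0.0346).

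The differences between fractions were compared between parts with interaction terms, the GFP-high minus GFP-negative difference in one place less that in another. Between colon and small intestine, 4 of 10 members passed, beside 32.2% of all genes (14.5% positive and 17.7% negative), all with a less negative or positive value in the colon. The interaction was 4.69 ± 0.53 for Il33, 3.22 ± 0.57 for Reg1, 2.24 ± 0.30 for Il18 and 1.80 ± 0.57 for Reg3g (edgeR adjusted p 2.71e-10, 9.7e-06, 2.74e-08 and 0.011). Without distal colon GFP-high replicate 2 the Reg1 value was 2.06. Without the libraries numbered 1 the Reg3g value was 1.78 and did not pass (adjusted p = 0.0616). Reg3b (1.82 ± 0.73) missed the threshold (edgeR adjusted p = 0.0508) and passed with the replicate block (1.77, adjusted p = 0.0404). The Reg3b value also passed when any of 15 of 40 libraries was left out, and ran from 0.98 without distal colon GFP-high replicate 3 (adjusted p = 0.329) to 2.82 without distal colon GFP-negative replicate 3 (adjusted p = 0.00127). Pigr (0.30 ± 0.15) did not pass (edgeR adjusted p = 0.132) but did with the block (0.30, adjusted p = 0.0302). Reg3a did not pass, and its value cannot be read as an effect size, since 2 distal colon groups had no count.

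Between distal and proximal small intestine 1 of 10 members passed, beside 3.54% of all genes (2.54% positive and 0.993% negative). This was Reg1, at 3.46 ± 0.83 (edgeR adjusted p = 0.00888), whose fraction difference was -3.87 in the proximal and -0.41 in the distal part. It was 3.28, 3.11 and 3.89 without the libraries numbered 1, 2 or 3 and did not pass (adjusted p 0.0589, 0.0531 and 0.0578). Pigr (0.70 ± 0.23) and Il18 (1.47 ± 0.46) did not pass (edgeR adjusted p 0.0755 and 0.0611) and passed with the block (0.71 and 1.42, adjusted p 0.00809 and 0.044). Between distal and proximal colon no member passed, beside 0.616% of all genes (0.36% positive and 0.257% negative). The Il33 value there was 1.63 ± 0.80 (edgeR adjusted p = 0.58), and 0.016 once replicate 4 of the GFP-negative proximal colon was left out, so that the turned Il33 difference of the distal colon was not shown to differ from that of the proximal colon.

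Other secreted defence proteins (26 listed, 23 tested) shared part of this layout. In GFP-high against GFP-negative cells 5 were higher and 10 lower in the proximal, 5 and 11 in the middle and 5 and 13 in the distal small intestine, with medians of -0.60, -1.08 and -1.30. Of all genes 22.5%, 22.7% and 25.7% were higher there and 24.6%, 25.6% and 26.2% lower, so the 5 higher of 23 lie near the share of all genes. Zg16, a goblet cell lectin, was lower by -5.27 ± 0.45 and Muc2, the gel-forming mucin, by -3.51 ± 0.33 in the proximal part. Lyz1, the Paneth cell lysozyme, was higher by 3.72 ± 0.46 (edgeR adjusted p 5.39e-14, 5e-13 and 1.35e-09). Toward the distal small intestine 8, 6 and 6 of the 23 rose and 1, 1 and 2 fell in GFP-high, intermediate and negative cells, where 6.39%, 5.25% and 6.67% of all genes rose and 5.42%, 3.56% and 8.9% fell. The epithelial oxidase Duox2 and its maturation factor Duoxa2 rose in all 3, Duox2 from 26.7 to 778 CPM in GFP-negative cells (4.86 ± 0.36, edgeR adjusted p = 2.21e-15). In the distal colon, Dmbt1, a secreted bacteria-binding glycoprotein, was lower than in the proximal colon by -1.63 ± 0.24 in GFP-negative cells (edgeR adjusted p = 1.12e-06), the direction of Reg3b and Reg3g there. In the same comparison Wfdc2 was higher by 2.05 ± 0.33 (edgeR adjusted p = 6.38e-06).

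Of 27 microbial sensors and inflammasome genes, 17 were lower and 4 higher in GFP-high cells of the proximal small intestine, with a median of -0.92, beside 24.6% and 22.5% of all genes. In the proximal colon 6 were lower and 2 higher (median -0.12), beside 14% and 11.3% of all genes. Gsdmd, the pore-forming target of the caspases that mature Il18, was lower by -2.92 ± 0.27 and Casp1 by -1.29 ± 0.13 in the proximal small intestine (edgeR adjusted p 3.27e-13 and 3.44e-12), as Il18 was. Neither passed in the colon (edgeR adjusted p 0.0711 and 0.535 in the proximal, 0.0843 and 0.233 in the distal part). Toward the distal small intestine 16, 10 and 9 of the 27 rose and 0 fell in GFP-high, intermediate and negative cells, beside 6.39%, 5.25% and 6.67% of all genes that rose. The DNA sensor Aim2 rose in GFP-high cells from 2.24 to 20.4 CPM (3.19 ± 0.27, edgeR adjusted p = 1.15e-12), and Cd14, a co-receptor for lipopolysaccharide, from 12.4 to 25.9 CPM (1.07 ± 0.19, edgeR adjusted p = 4.94e-05).

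Of 25 genes of IL-22 and related cytokine signalling, 21, 23 and 22 were lower in GFP-high cells of the 3 small intestinal parts and 2, 2 and 1 higher, with medians of -1.12, -1.11 and -1.21. The shares of all genes lower there were 24.6%, 25.6% and 26.2%, and 22.5%, 22.7% and 25.7% were higher. This list, like the other defence lists, was chosen with earlier results of these data known, so the count is a description. The leukocyte sums given above also differed between these fractions, and their part in these values was not tested. Stat3, which transmits IL-22 signals, was lower by -1.56 ± 0.13, -1.27 ± 0.13 and -1.21 ± 0.13 from the proximal to the distal part and by -0.55 ± 0.12 and -0.53 ± 0.12 in the 2 colon parts (edgeR adjusted p from 9.8e-15 to 0.00112). In the colon 12 of 25 were lower in each part, beside 14% and 13.9% of all genes. Il22ra1, the IL-22 receptor chain of epithelia, was lower in the colon than in the small intestine by -1.07 ± 0.17, -0.86 ± 0.17 and -2.18 ± 0.18 in GFP-high, intermediate and negative cells (edgeR adjusted p 4.06e-07, 2.19e-05 and 8.94e-16), the direction of Reg3b and Reg3g. Fut2, a fucosyltransferase of the mucosal surface, rose along the small intestine in GFP-negative cells from 1.78 to 137 CPM (6.26 ± 0.68, edgeR adjusted p = 3.35e-10). Unlike Reg3b and Reg3g it was higher in the colon, by 4.49 ± 0.37 in GFP-negative cells (edgeR adjusted p = 2.01e-15). A link of the listed genes to the Reg3b and Reg3g levels was not tested.

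The genes whose group means ran most like each member differed from one member to the next. The closest to Reg3b was Slc51a (Pearson r 0.973 over the 15 groups), a basolateral bile acid transporter gene. The closest to Reg3g was Itgam (r 0.960). Reg3a ran with Exoc3l4, Pdzk1 and Tmem41a (r 0.996, 0.995 and 0.994), Reg1 with Slc27a5 and Ugt1a9 (r 0.968 and 0.967), Nos2 with Plb1 (r 0.969), Il18 with Cyp2c68 and Tob1 (r 0.968 and 0.967), Il33 with Creb3l2 (r 0.959), Pglyrp1 with Ceacam10 and Cd177 (r 0.963 and 0.943), and Pigr with Tmem45b (r 0.957). Slc27a5 was near the floor, with group means of 0 to 1.22 CPM. All these genes were picked as the most alike among 16102 protein coding genes. These correlations over 15 groups describe shared profiles, and the groups share replicate numbers and scaling.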

How the data were processed

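The data are polyA RNA-seq libraries of sorted gut epithelial cells. The authors deposited 1 table of raw read counts per gene, made with STAR and featureCounts (Subread) on mm10, per the submitters' processing notes, which also name edgeR; versions, library kit, strand setting and annotation release are not given in the sources used here. Groups came from the sample labels. Counts were scaled by TMM and tested with edgeR 4.0.16 (limma 3.58.1, R 4.3.3) by its quasi-likelihood test over all 60 libraries, with 15 group means, after filterByExpr left 23360 genes holding 99.97% to 99.99% of the counts. P-values were Benjamini-Hochberg adjusted within each of 19 comparisons, with a threshold of 0.05. SE is the log2 difference divided by the root of F. Totals of 55411864 to 113917959 counts set the counting precision, and floors of 3 counts per library cover counting error only. RPKM uses the table's gene lengths. Alternatives were DESeq2 1.42.0 (test and size factors), no filter, a replicate block, only the groups compared, and left-out libraries. They were examined for the members and for the number of all genes called, and not for single genes of the defence lists. Single-library fits held the dispersion trend at its all-library value. The deposited batch number equals the replicate number in 60 of 60 libraries, so same-numbered libraries are taken to share a batch. The reported p-values come from the fit without a block, and the fit with it is printed where it changes a call. Deviations correlated at a mean r of 0.168 over 420 same-numbered pairs (58.81% over 0.1) and -0.052 between numbers, over 8000 genes. Named genes are the 10 members, up to 4 genes per defence list and comparison group with the smallest p, the 3 genes most alike to each member, Lgr5, and markers beside a member; likeness was ranked by Pearson r of log2(group mean CPM + 1). Members and gene lists were chosen with earlier results of these data known, and TATAAA was added after the sequences were seen. The tests were also run on counts simulated from the fitted model, for GFP-high against GFP-negative cells of the distal small intestine. Libraries were independent in that simulation, so it cannot check p-values against what same-numbered libraries share.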

Additional observations from a re-analysis of the deposited data

Results flagged for a closer look

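In 14 of 146 member and group combinations with a count, 1 of the 4 libraries stood far from the other 3 by Dixon's criterion. Chance alone meets it in about 1 of 20 groups of normally distributed values. A group with counts in 1 library only always meets it, so the 14 cannot be set against that rate. In the proximal small intestine, GFP-intermediate replicate 1 stood apart for Reg1 (79.0 CPM against 186 to 201) and Reg3b (79.6 against 233 to 259). GFP-high replicate 1 stood apart for Reg3g (51.3 against 105 to 113), GFP-high replicate 3 for Il33 (2.13 against 1.25 to 1.34) and GFP-intermediate replicate 2 for Pglyrp1 (64.5 against 70.4 to 70.7). In the middle part GFP-high replicate 3 held 4060.0 CPM of Pigr against 5227 to 5467. In the distal part GFP-high replicate 1 held 7.57 CPM of Il18 against 4.37 to 4.85.

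In the distal colon GFP-high replicate 2 stood apart for Reg1 (5.30 CPM against 0 to 0.896), Pglyrp1 (263 against 215 to 220) and Pglyrp2 (0.117 against 0). GFP-intermediate replicate 3 did so for Reg3a (0.197 against 0 to 0.0272). In the proximal colon GFP-high replicate 3 held 1.82 CPM of Nos2 against 0.143 to 0.340. Pglyrp2 was counted in 1 library only in proximal colon GFP-intermediate (replicate 3, 0.0612 CPM) and in distal small intestinal GFP-intermediate cells (replicate 3, 0.0236 CPM).

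The GFP-high minus GFP-negative difference itself differed between places in 5 tests by edgeR. Between distal and proximal small intestine it did for Reg1 (3.46, adjusted p = 0.00888). Between colon and small intestine it did for Reg1 (3.22, adjusted p = 9.7e-06), Reg3g (1.80, adjusted p = 0.011), Il33 (4.69, adjusted p = 2.71e-10) and Il18 (2.24, adjusted p = 2.74e-08).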

How the results depend on the processing

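Over the 10 members and 19 comparisons 95 differences were called; the alternatives were run for these and for some that were not called, 115 in all. None of the 95 changed sign in the alternatives run; 85 stayed called under each alternative over the whole series, 77 without each single library and 74 without each replicate number. The Reg3b difference between fractions in the distal colon, not called, ran from -3.38 without distal colon GFP-high replicate 3 to 0.30 without distal colon GFP-negative replicate 3. The replicate block changed the calls given beside the results and no other member call. With DESeq2 size factors all genes shifted by -0.11 and -0.13 between fractions in the proximal and distal small intestine, and group levels moved by at most 1.079 times. Members called between GFP-high and GFP-intermediate cells were 1 without the filter and 4 in the groups alone for the small intestine (2 reported), and 2 with the replicate block and 3 in the groups alone for the colon (1 reported). With the block, 8 were called between distal and proximal small intestinal GFP-negative cells, and 3 for the interaction of fraction with small intestinal part, against 2 in the groups alone and 3 with DESeq2. Of all genes, that interaction called 531 without the filter, 235 in the groups alone and 1306 with DESeq2 (826 reported), and the colon one 52 in the groups alone and 275 with DESeq2 (144 reported). In the groups alone, genes called were 2899 between fractions of the proximal colon, 4820.0 between GFP-high and GFP-intermediate colon cells, 4996 and 1080.0 between distal and proximal small intestine (GFP-high and GFP-negative), and 3736 and 1709 between the colon parts (GFP-intermediate and GFP-negative). Leaving out libraries or numbers moved members called to 1 to 3 between fractions of the proximal colon, 1 to 2 and 0 to 2 between GFP-high and GFP-intermediate cells of small intestine and colon, 3 to 6 between the colon parts in GFP-intermediate cells and 0 to 2 for the interaction in the small intestine. All genes called then ran from 2808 to 7562 and 3326 to 6680 between fractions in proximal and distal colon, 2727 to 5974 and 8 to 4443 between GFP-high and GFP-intermediate cells of small intestine and colon, 1186 to 3740 and 1234 to 1797 along the small intestine in GFP-high and GFP-intermediate cells, 1118 to 1749, 1004 to 1454 and 1510 to 3290 along the colon in GFP-high, intermediate and negative cells, and 290 to 1372 and 35 to 173 for the small intestinal and colon interactions. Depth limits Pglyrp2 outside GFP-negative cells and Reg3a in the colon, which rest on few or no counts.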

Other observations

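The balance of the 2 closely related lectins Reg3b and Reg3g was examined after their values were seen. Per gene length, the log2 ratio of Reg3b to Reg3g had a lower mean in GFP-high cells than in the GFP-negative fraction of all 5 parts. The means were 1.14 and 1.93 in the proximal, 0.63 and 1.66 in the middle and 0.42 and 1.37 in the distal small intestine. They were 1.55 and 1.99 in the proximal and 0.18 and 1.21 in the distal colon. By 2-sided exact permutation tests of 4 against 4 libraries, p was 0.0857, 0.0286, 0.0286, 0.257 and 0.229, where 0.0286 is the smallest p the design allows. After Benjamini-Hochberg adjustment over the 5 parts the values were 0.143, 0.0714, 0.0714, 0.257 and 0.257, so no part passed. The middle and distal small intestine were already at the smallest p, so they could have passed only with lower p in other parts. For these parts the adjusted values therefore do not decide whether the ratio differed. These tests take no account of the replicate numbers; the ratio was lower in GFP-high cells in 3, 4, 4, 3 and 4 of 4 same-numbered pairs.

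Socs3, a feedback inhibitor of STAT3 signalling, was lower in the distal than in the proximal colon in all 3 fractions, by -1.73 ± 0.41, -1.38 ± 0.40 and -1.65 ± 0.40 in GFP-high, intermediate and negative cells (edgeR adjusted p 0.00297, 0.0222 and 0.003). Nlrp6, an epithelial sensor gene, was lower there by -0.89 ± 0.15, -1.02 ± 0.15 and -0.96 ± 0.15 (edgeR adjusted p 1.26e-05, 7.7e-07 and 2.26e-06), and Cd14 was higher by 0.86 ± 0.19, 0.88 ± 0.19 and 1.33 ± 0.19 (edgeR adjusted p 0.00118, 0.000748 and 4.92e-07). Single genes of the defence lists, these included, were not examined in the alternatives.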
